A study of Mus musculus with 20 samples.

Results

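The mitochondrial genome of the mouse carries 37 genes, and all gene identifiers listed on chromosome MT in the count files were taken, which gave 37 of 48967 genes. They are 13 protein genes, 2 ribosomal RNA (rRNA) genes and 22 transfer RNA (tRNA) genes. PolyA-selected RNA of hearts from wild-type C57BL/6 mice of 12 weeks, kept in RNAlater, was sequenced on a NovaSeq instrument. Females and males on chow (Chow-F, Chow-M) stood against females and males named PA (PA-F, PA-M), 5 samples each. The series text names only chow and a high-fat diet, so PA is taken here to stand for high fat. The labels give neither the length of the diet nor a statement that samples are separate animals, so the p-values reflect spread among samples that may be technical. Chow-M4 was counted per gene, unlike the rest, and was left out, so 19 of 20 samples were compared: 5 Chow-F, 4 Chow-M, 5 PA-F and 5 PA-M.

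Mitochondrial DNA is copied into RNA from both strands as long precursors by a polymerase of its own, POLRMT, with TFAM and TFB2M. Enzymes cut the tRNAs out, which frees the messenger and ribosomal RNAs between them, and most of the messengers then receive a polyA tail. The proteins are core subunits of respiratory chain complexes I, III and IV and of ATP synthase (complex V), the machinery that supplies most of the ATP of heart muscle. The rRNAs build the mitochondrial ribosome, and all other proteins of the mitochondrion are encoded in the nucleus.

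The 19 libraries held 57805110 to 85794067 counts. These are counts over pieces of exons, and a read that covers several pieces counts in each. Levels are given as counts per 1000000 (CPM), scaled by edgeR's TMM method. The cardiomyocyte gene Myh6 stood at 35397 to 44367 CPM in every library, and summed adipocyte markers stayed at 0.320 to 2.61 CPM. PA-F4 and PA-F5 stood apart. In these 2 libraries Malat1, a long RNA that stays in the nucleus, was at 117 and 63.8 CPM, against 1130 to 1530 CPM in the other libraries. Xist was at 17.9 and 10.6 CPM in them, against 114 to 143 CPM in the other female libraries and 0.144 to 0.820 CPM in males. The log2 difference of PA-F4 and PA-F5 from the mean library also rose by 0.54 and 0.84 per 10 points of GC content over 13487 genes, against -0.16 to 0.08 elsewhere. The calls below are therefore also given without them. In such bulk samples, fewer cells of a type and less RNA per cell cannot be told apart.

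The rRNA genes and their neighbours show how tightly the genome is packed, with tRNAs filling the gaps between longer genes. Both stretches are shown because they join the 2 rRNAs to their neighbours. From the end of mt-Rnr1 to the start of mt-Rnr2 (positions 1005 to 1113 of the plus strand of MT, GRCm38, from the GENCODE vM21 transcripts), the tRNA mt-Tv, in capitals, fills the whole gap.
mt-Rnr1 to mt-Rnr2: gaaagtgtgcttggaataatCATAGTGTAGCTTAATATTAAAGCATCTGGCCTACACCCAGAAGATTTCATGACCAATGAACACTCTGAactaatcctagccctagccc
From the end of mt-Rnr2 to the start of mt-Nd1 (positions 2656 to 2770), the tRNA mt-Tl1 is in capitals.
mt-Rnr2 to mt-Nd1: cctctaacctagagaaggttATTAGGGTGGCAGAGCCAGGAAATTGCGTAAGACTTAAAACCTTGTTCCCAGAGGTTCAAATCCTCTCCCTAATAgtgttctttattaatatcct

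The 22 tRNA genes were counted with the reads of their neighbours, since a read that touches a short gene and a long one counts for both. tRNAs made up 2.02% to 3.59% of mitochondrial counts. In the per-gene file of Chow-M4, which lacks both rRNAs, tRNA genes held 0.822% of the tRNA and protein gene counts, against 2.06% to 3.81% in the 19 libraries. Values of tRNA genes below are therefore values of the position, not of the mature tRNA.

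In 3 of the 13 protein genes the annotated gene ends in the first letter of a stop codon, and the polyA tail is known to complete it. Their last bases are shown with that letter in capitals, beside mt-Co1, which carries the whole codon.
mt-Co3: tattgatgaggatctT
mt-Nd4: acaggcctgacaataT
mt-Cytb: ctaaaattatatccaT
mt-Co1: tatgtaaaagtaaaaTAA

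Among the 15 protein and rRNA genes, mt-Co1, the catalytic subunit of complex IV, had the highest level per length, at 25979 ± 2926 CPM per kb (SD, n = 19). mt-Cytb, the only subunit of complex III encoded here, followed at 12703 ± 1859 CPM per kb, and mt-Nd1 of complex I at 11065 ± 1553. The ranges of mt-Cytb and mt-Nd1 overlapped, although mt-Cytb was higher in 19 of 19 libraries. mt-Nd6, the only protein gene on the other strand, stood at 7799 ± 2110 CPM per kb and mt-Nd2 at 7585 ± 1541, and these neighbours changed places, with mt-Nd6 above in 14 of 19 libraries. mt-Nd5 (5694 ± 1515) and mt-Nd4 (4740 ± 952) closed the abundant messengers of complex I. The sources used here do not state that reads were counted by strand, so mt-Nd6 cannot be told apart from antisense RNA at its position. The rRNAs stood lower, with mt-Rnr2, the large subunit rRNA, at 2490 ± 817 CPM per kb and mt-Rnr1, the small subunit rRNA, at 1490 ± 376. The RNA was polyA-selected, so rRNA values here and below are those of captured RNA, not of all rRNA in the heart.

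The other 6 protein genes were far lower. mt-Nd3 stood at 162 CPM per kb, mt-Nd4l at 92.1, mt-Atp8 at 54.8, mt-Atp6 at 34.5, mt-Co2 at 32.2 and mt-Co3 at 31.9. mt-Co2 was above mt-Co3 in 9 of 19 libraries, so their order was not set. At least 99.74% of protein gene counts in each library came from the 7 abundant ones. mt-Co2 encodes a core subunit of the same enzyme as mt-Co1, yet per length it reached 0.0535% to 0.306% of mt-Co1 in the 19 libraries, and 0.0587% in Chow-M4. In the plot of levels per length, the low genes form 1 block.

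**Figure D1:**
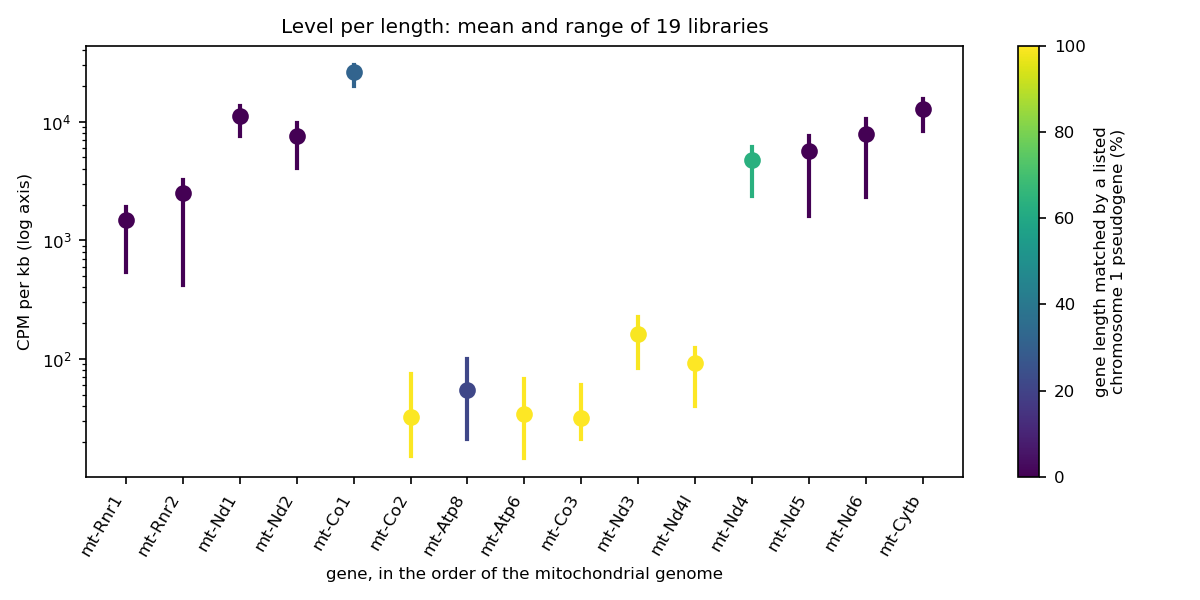
Level per length in CPM per kb (log axis) of the 15 protein and rRNA genes in the order of the mitochondrial genome; points are means and lines the range of 19 libraries, and colour gives the percent of the gene's length matched by a listed chromosome 1 pseudogene. The genes from mt-Co2 to mt-Nd4l lie at 31.9 to 162 CPM per kb, and the others at 1490 to 25979.

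The 6 low genes follow each other, with tRNAs between them, and that region has a nuclear copy. On chromosome 1 (GRCm38, minus strand, 24611535 to 24616197) the annotation lists 7 pseudogenes that match it. Gm28661 matched mt-Co2 over 681 bases, Gm10925 matched mt-Atp6 over 678 and Gm28437 matched mt-Co3 over 783, each with 100% identity. Gm29216 matched the last 492 bases of mt-Co1 with 6 differences, and Gm28439 matched the first 876 bases of mt-Nd4 with 0. The starts of 2 of these matches are shown because they mark where the copy does and does not differ. In the first pair, bases 1054 to 1101 of mt-Co1, capitals mark the differing bases.
mt-Co1: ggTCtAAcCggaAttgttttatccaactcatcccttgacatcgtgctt
Gm29216: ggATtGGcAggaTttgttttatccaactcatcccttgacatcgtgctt
In the second, the first 60 bases of mt-Atp6, none differ.
mt-Atp6: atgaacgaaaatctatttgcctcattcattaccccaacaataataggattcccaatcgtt
Gm10925: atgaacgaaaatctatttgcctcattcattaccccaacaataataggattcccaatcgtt
The substitutions in mt-Co1, counted from its first base, were T1056A, C1057T, A1059G, A1060G, C1062A and A1066T, and the rest of the match was identical. The only other difference was T3C in mt-Nd3.

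The pseudogenes held few counts too, 38 to 1700 per gene and library. How reads that match both copies were counted is not given in the sources used here, and its part in the low values was not tested. mt-Atp8 was low too, with a listed match over 21.1% of its length. Its other bases, positions 7766 to 7926 of MT, lie between the matches of Gm28661 (to 7693) and Gm10925 (from 7927). A match to chromosome 1 there was not looked for. mt-Co1 is matched over 31.8% and mt-Nd4 over 63.6% of its length. As an alternative chosen after the data were seen, the CPM of the whole gene was divided by its length without a listed match. This gave 38118 CPM per kb for mt-Co1 and 12946 for mt-Nd4, which moved mt-Nd4 from the seventh place to the second. Counts from the matched bases stayed in these values, so they are upper bounds for the unmatched bases. Levels of the matched genes are thus uncertain. Comparisons between groups use the same positions in every library, but low genes can shift in a single library. Chow-F4 was 2.77-fold the mean of the other Chow-F libraries at mt-Co2 and 1.03-fold at mt-Co1.

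Mitochondrial genes took 7.49% to 11.9% of all counts. The share was 9.67% ± 0.51 in Chow-F (SD, n = 5), 10.1% ± 0.59 in Chow-M (n = 4), 9.10% in PA-F (7.49% to 11.3%, n = 5) and 11.8% ± 0.20 in PA-M (n = 5). PA-M libraries, at 11.5% to 11.9%, lay above every other library. PA-F libraries were spread widely, at 11.3%, 9.79% and 8.23% in PA-F1 to PA-F3, and 8.67% and 7.49% in PA-F4 and PA-F5. Chow-M4 gave 20.4% under its other way of counting, without the rRNAs, so its share is not comparable with the rest. In the other files a read can count more than once, in spliced nuclear genes and at neighbouring mitochondrial genes. The part of counting in the gap was not tested.

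Within the mitochondrial counts, rRNA was a smaller part in the PA libraries of both sexes. It made up 5.55% to 6.08% in Chow-F and 6.29% to 6.74% in Chow-M, but 4.75% to 5.44% in PA-M. In PA-F1 to PA-F3 it was 4.20% to 4.67%, and in PA-F4 and PA-F5 it was 1.93% and 1.58%. PA and chow libraries did not overlap in either sex. The ratio of mt-Rnr2 to mt-Rnr1 counts was 2.53 ± 0.18 in Chow-F (SD, n = 5), 2.83 ± 0.07 in Chow-M (n = 4) and 3.24 ± 0.06 in PA-M (n = 5). It was 2.73 to 2.98 in PA-F1 to PA-F3, against 1.09 and 1.30 in PA-F4 and PA-F5. These shares and ratios are described without a test. In polyA-selected RNA, here and in the comparisons below, a change in rRNA captured cannot be told apart from a change in rRNA amount.

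**Figure D2:**
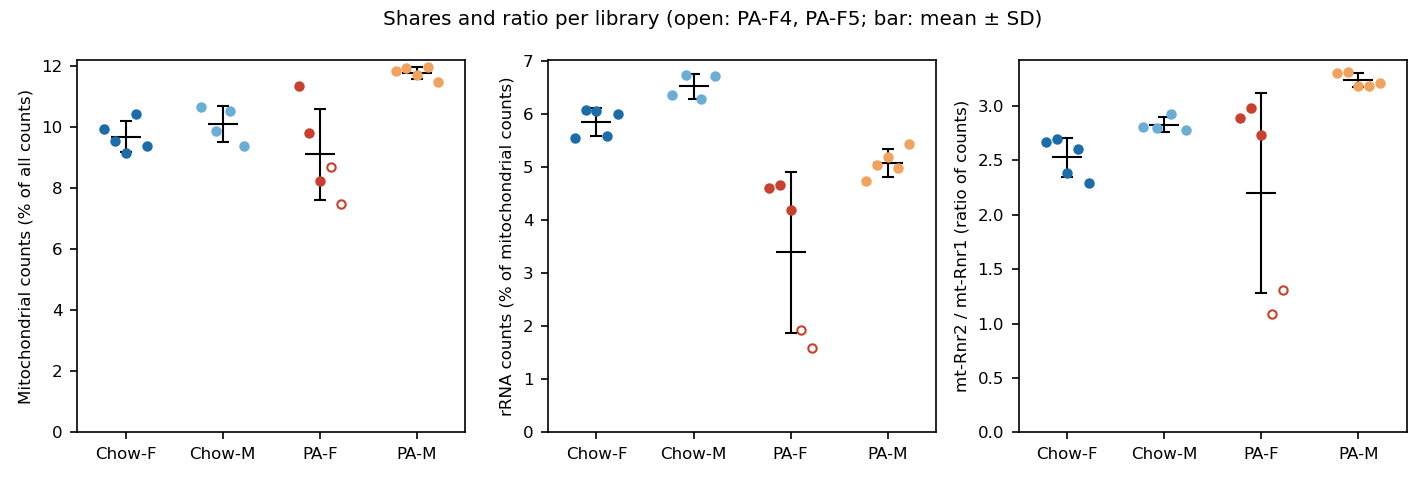
Share of mitochondrial genes in all counts (%), share of rRNA in mitochondrial counts (%) and ratio of mt-Rnr2 to mt-Rnr1 counts, per library and group, with mean ± SD as bars and PA-F4 and PA-F5 as open points. The rRNA share lies below chow in every PA library of the same sex, lowest at 1.58% in PA-F5.

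The first comparison asked what the diet did in females. Both rRNAs were lower in every PA-F library than in every Chow-F library, while 0 of 13 messengers passed the test. mt-Rnr1 stood at 1507, 1584, 1652, 1610 and 1762 CPM in Chow-F1 to Chow-F5, and at 1313, 1111, 890, 812 and 512 CPM in PA-F1 to PA-F5. mt-Rnr2 stood at 4019, 4266, 3929, 4189 and 4036 CPM in Chow-F, and at 3791, 3307, 2428, 885 and 668 CPM in PA-F. The groups did not overlap for either gene, and PA-F4 and PA-F5 were lowest in both.

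mt-Rnr1 fell by 0.81 on the log2 scale (SE 0.16, adjusted p = 0.0114, quasi-likelihood test of edgeR, Benjamini-Hochberg adjusted over 18035 genes). mt-Rnr2 changed by -0.88 (SE 0.32) with an adjusted p of 0.148, and did not pass. Without PA-F4 and PA-F5 both passed, at -0.56 (SE 0.08, adjusted p = 0.00102) for mt-Rnr1 and -0.37 (SE 0.08, adjusted p = 0.0173) for mt-Rnr2. Fitted on the 2 female groups alone, 0 members were called, and the adjusted p of mt-Rnr1 was 0.157. The tRNA position mt-Tf, next to mt-Rnr1 and low at 0.576 to 2.02 CPM, was the other one called, at -0.79 (SE 0.17, adjusted p = 0.0197), and without the 2 libraries its adjusted p was 0.0504. Of 36 tested members, 2 were thus lower and 0 higher, where 0.865% of all genes tested were lower and 1.67% higher. Without the 2 libraries 2 were lower, against 2.50% of all genes. The groups did not overlap for 3 members, all lower, against 1.90% of all genes.

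Of the 13 protein genes 0 passed in females, and 6 had an unadjusted p under 0.05. Their median log2 change was -0.34, against -0.02 over all genes, and it was -0.08 without PA-F4 and PA-F5. mt-Nd5 of complex I stood at 9313 to 11058 CPM in Chow-F (median 10757), at 12609, 10415 and 8817 CPM in PA-F1 to PA-F3, and at 4509 and 2923 CPM in PA-F4 and PA-F5. mt-Nd6 stood at 3663 to 4800 CPM in Chow-F (median 3957), at 4908, 3945 and 3206 CPM in PA-F1 to PA-F3, and at 2019 and 1205 CPM in PA-F4 and PA-F5. PA-F1 to PA-F3 straddled the chow range in both genes, and PA-F4 and PA-F5 lay far below it. mt-Co1 went the other way, at 40572, 35586 and 30774 CPM in PA-F1 to PA-F3 but 45272 and 43640 CPM in PA-F4 and PA-F5, against 34963 to 37831 CPM in Chow-F. mt-Cytb lay at 11962 to 16348 CPM in PA-F1 to PA-F3, which spans the 13383 to 14364 CPM of Chow-F, and at 12374 and 9480 CPM in PA-F4 and PA-F5, below it. The low genes mt-Co2 (-0.68, SE 0.26), mt-Atp6 (-0.60, SE 0.23), mt-Atp8 (-0.53, SE 0.23) and mt-Co3 (-0.51, SE 0.19) did not pass, and Chow-F4 was far above the other Chow-F libraries in each.

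The PA-F libraries differed in order as well as in size. The median log2 difference of the 13 protein genes from the Chow-F mean was 0.15, -0.04 and -0.38 in PA-F1 to PA-F3, and -0.48 and -0.92 in PA-F4 and PA-F5. For the 2 rRNAs it was -0.21, -0.42, -0.81, -1.60 and -2.14 in PA-F1 to PA-F5. In PA-F1 to PA-F3 the lines of the 7 abundant protein genes ran close to flat, with the rRNAs below them, whereas in PA-F4 and PA-F5 they spread from mt-Rnr2 at the bottom to mt-Co1 at the top. Across these 9 genes the log2 difference rose with GC content (34.1% to 39.87%), with Pearson's r of 0.62 and 0.72 and Spearman's rho of 0.75 and 0.75 in PA-F4 and PA-F5, against r of 0.07 to 0.40 in the other PA-F libraries. The genes share 1 genome and 1 library, so these are descriptions of a library. With the GC slope of each library as a covariate, the median of the protein genes in females was -0.02.

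**Figure D3:**
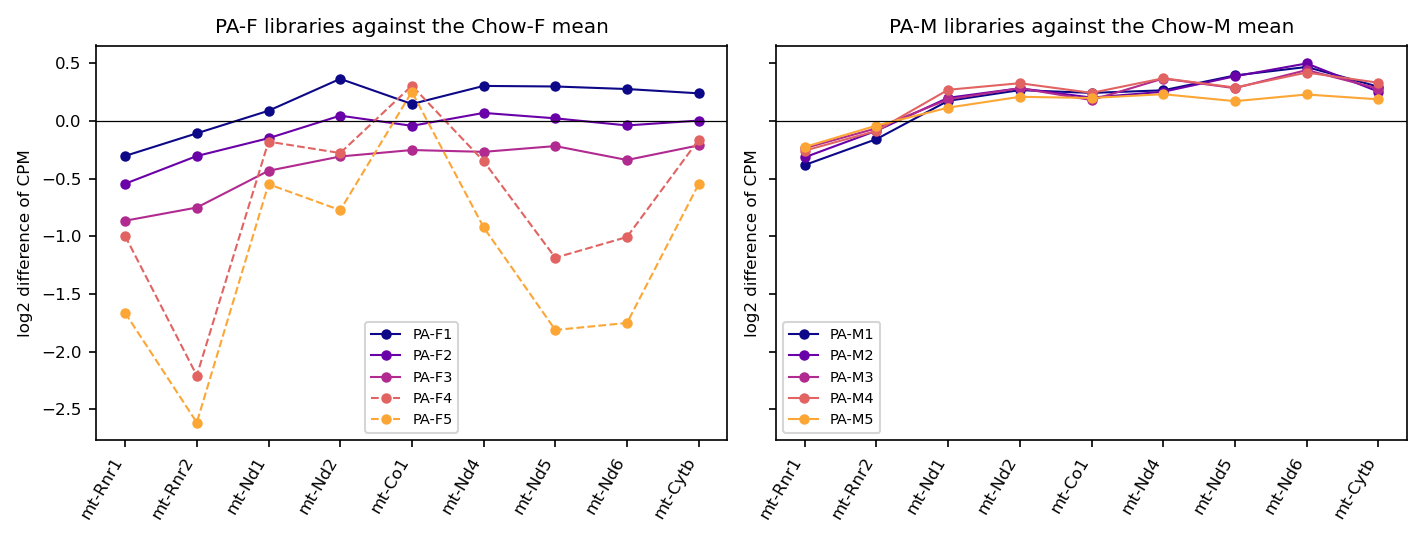
Log2 difference in CPM of each PA library from the chow mean of its sex, for the 9 abundant protein and rRNA genes in genome order; each line is 1 library, and dashed lines are PA-F4 and PA-F5. PA-M lines run together, while PA-F4 and PA-F5 drop most at mt-Rnr2 and stand above 0 at mt-Co1.

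In males 0 of 36 members passed the test for diet with all 19 libraries, although the groups did not overlap for the abundant messengers and mt-Rnr1. All 7 abundant protein genes were higher in every PA-M library than in every Chow-M library. mt-Cytb stood at 15140, 13658, 14629 and 13556 CPM in Chow-M, and at 17466, 16958, 17265, 17886 and 16190 CPM in PA-M. mt-Co1 stood at 41282, 38947, 39758 and 36639 CPM in Chow-M, and at 46258, 44976, 44318, 46270 and 44877 CPM in PA-M. Neither gene overlapped between the groups, and the differences amounted to 0.27 (SE 0.10) and 0.21 (SE 0.09) on the log2 scale.

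The complex I genes ran alike. mt-Nd6 stood at 3948, 3463, 4399 and 3715 CPM in Chow-M, and at 5342, 5456, 5245, 5166 and 4528 CPM in PA-M. mt-Nd5 stood at 10909, 9839, 11384 and 9806 CPM in Chow-M, and at 13739, 13672, 12732, 12778 and 11774 CPM in PA-M. mt-Nd4 had means of 6527 ± 538 (SD, n = 4) and 8001 ± 368 CPM (n = 5), mt-Nd2 of 8065 ± 547 and 9731 ± 285, and mt-Nd1 of 10669 ± 538 and 12153 ± 470. In each the lowest PA-M library was above the highest Chow-M library, with log2 changes of 0.19 (mt-Nd1) to 0.41 (mt-Nd6).

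None of these passed the test over all genes with all 19 libraries. Of 36 members 0 were called (138 of 18035 genes, 0.765%, were called in either direction), and 4 had an unadjusted p under 0.05; DESeq2 also called 0. The adjusted p of the protein genes was 0.400 or more. The groups did not overlap for 12 members, all higher (7 protein genes and 5 tRNA positions), against 3.62% of all genes, and for 1, mt-Rnr1, lower, against 3.98%. The test shares 1 estimate of the spread over the 4 groups, and PA-F4 and PA-F5 are part of it. Without them 6 members were higher (1.37% of all genes were higher) and 1 lower (1.23%). They were mt-Cytb (0.27, SE 0.06, adjusted p = 0.0205), mt-Nd6 (0.41, SE 0.10, adjusted p = 0.0274), the tRNA position mt-Te (adjusted p = 0.0415), mt-Nd4 and mt-Nd5 (both 0.0454) and mt-Co1 (0.0466), and, lower, mt-Rnr1 (-0.28, SE 0.07, adjusted p = 0.0454). Fitted on the 2 male groups alone, 9 were higher and 1 lower, but the share over all genes was not taken for that fit.

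mt-Rnr1 stood at 1804, 1793, 1724 and 1724 CPM in Chow-M and at 1351, 1415, 1495, 1473 and 1505 CPM in PA-M. mt-Rnr2 had means of 4976 ± 127 (SD, n = 4) and 4683 ± 141 CPM (n = 5), and its groups overlapped. mt-Rnr1 was thus lower in every PA library of both sexes, and mt-Rnr2 was so in females. The 6 low protein genes had log2 changes of 0.15 to 0.26 in males, and their groups overlapped.

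**Figure D4:**
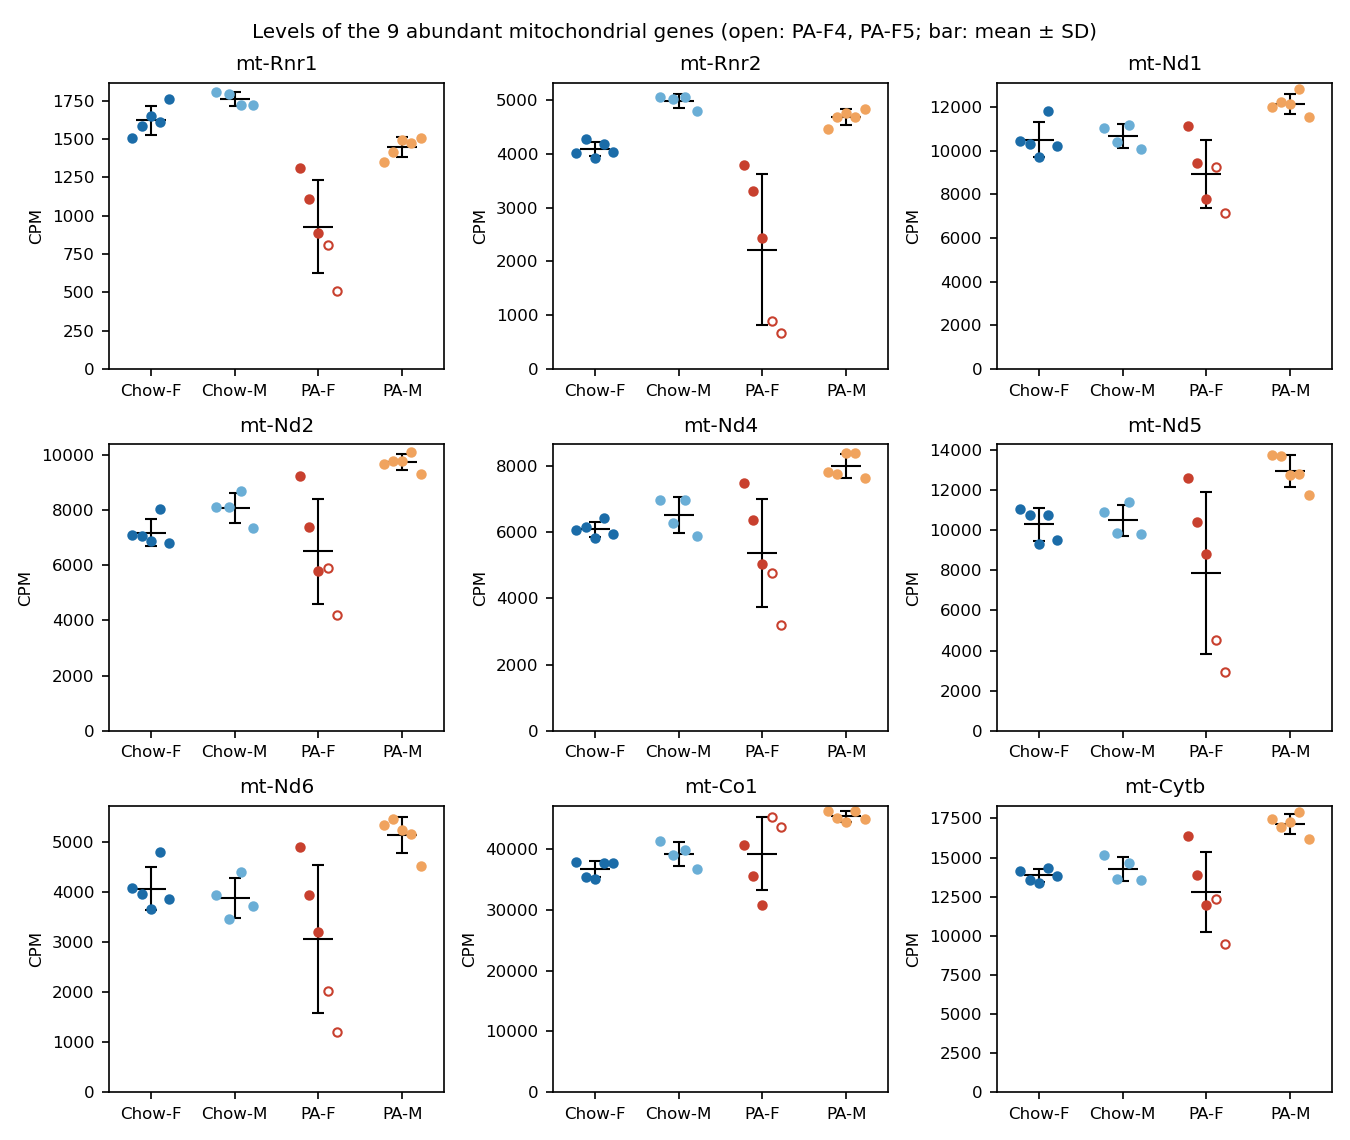
CPM per library and group of the 9 abundant protein and rRNA genes, with mean ± SD as bars and PA-F4 and PA-F5 as open points. The 5 PA-M points lie above all Chow-M points in the 7 protein genes, and the PA-F points lie below all Chow-F points in mt-Rnr1 and mt-Rnr2.

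Whether the diet acted differently in the sexes was tested as an interaction. All 36 members were more negative in females than in males, with a median of -0.48 on the log2 scale, and -0.31 without PA-F4 and PA-F5. For the 13 protein genes the medians were -0.49 and -0.30. edgeR called 0 of 36 members and 0 of 18035 genes (0.00%), with 18 members and 1835 genes at an unadjusted p under 0.05, and DESeq2 called 0 members. The difference between the sexes in the response to diet was thus not shown for any member.

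On chow, no member passed the test between the sexes. Of 36 members 0 were called between Chow-F and Chow-M (3.23% of all genes were called in either direction), and 5 had an unadjusted p under 0.05; DESeq2 called 1. The protein genes had a median log2 difference, female minus male, of -0.04, from -0.24 to 0.20. mt-Cytb means were 13864 ± 397 CPM in Chow-F (SD, n = 5) and 14246 ± 767 in Chow-M (n = 4), and the groups overlapped. mt-Rnr2 stood at 3929 to 4266 CPM in Chow-F and 4787 to 5053 CPM in Chow-M, with no overlap. It did not pass with all libraries (-0.28, SE 0.34, adjusted p = 0.787), but it did without PA-F4 and PA-F5 (-0.28, SE 0.08, adjusted p = 0.0247). Without them 9 members were lower in females, mt-Rnr2 and 8 tRNA positions, against 5.49% of all genes. The groups did not overlap for 6 members, lower in females, against 6.10% of all genes.

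On PA the sexes differed along most of the mitochondrial genome. This comparison shares the PA-F libraries with the diet comparison in females. Of 36 members 24 were lower in PA-F than in PA-M and 0 higher, which is 66.7%, where 3.95% of all genes were lower and 6.40% higher. The 24 were 7 protein genes, both rRNAs and 15 tRNA positions. They are not 24 separate results, since tRNA positions share reads with their neighbours and the members share long precursors. All 36 differences were negative, with a median of -0.66 on the log2 scale against 0.01 over all genes. Without PA-F4 and PA-F5, 24 were again lower, 9 of them protein genes, against 5.49% of all genes, and 21 were called both ways. The median was then -0.50.

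Among the complex I genes, mt-Nd1 had the smallest p. It stood at 11140, 9447, 7769, 9257 and 7169 CPM in PA-F1 to PA-F5, and at 12020, 12241, 12126, 12844 and 11537 CPM in PA-M. The groups did not overlap, and mt-Nd1 was lower by a log2 difference of -0.44 (SE 0.09, adjusted p = 0.00647). mt-Nd2 stood at 9221, 7392, 5785, 5906 and 4191 CPM in PA-F, and at 9682, 9788, 9793, 10092 and 9300 CPM in PA-M, with a difference of -0.58 (SE 0.14, adjusted p = 0.0133). PA-F1 was close to the lowest PA-M library, and PA-F5 was the lowest of all. mt-Nd4 was lower by -0.57 (SE 0.15, adjusted p = 0.0201), and the low genes mt-Nd3 and mt-Nd4l by -0.69 (SE 0.15) and -0.73 (SE 0.17).

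mt-Nd5 (-0.72, SE 0.26, adjusted p = 0.0808) and mt-Nd6 (-0.75, SE 0.24, adjusted p = 0.0553) did not pass with all libraries. In both, PA-F1 lay within the PA-M range, and PA-F4 and PA-F5 lay far below the rest. Without those libraries they passed, with smaller differences of -0.29 (SE 0.09, adjusted p = 0.0412) and -0.36 (SE 0.11, adjusted p = 0.0373).

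For complex III, mt-Cytb stood at 16348, 13881, 11962, 12374 and 9480 CPM in PA-F against 16190 to 17886 CPM in PA-M. Only PA-F1 reached the PA-M range, and the difference was -0.42 (SE 0.10, adjusted p = 0.0117). For complex IV, mt-Co1 did not pass with all libraries (-0.21, SE 0.08, adjusted p = 0.101), with PA-F4 inside the PA-M range of 44318 to 46270 CPM and PA-F5 just below it. Without them it passed at -0.35 (SE 0.06, adjusted p = 0.00159), with PA-F1 to PA-F3 below every PA-M library. For complex V, mt-Atp8 passed (-0.78, SE 0.23, adjusted p = 0.0401) and mt-Atp6 did not (-0.74, SE 0.23, adjusted p = 0.0517). mt-Co2 and mt-Co3 had adjusted p values of 0.0699 and 0.0549. Without PA-F4 and PA-F5 these 4 low genes gave adjusted p values of 0.117 to 0.176.

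The rRNAs were lower in every PA-F library than in every PA-M library. mt-Rnr1 differed by -0.64 (SE 0.16, adjusted p = 0.0161) and mt-Rnr2 by -1.08 (SE 0.32, adjusted p = 0.0415). Without PA-F4 and PA-F5 the differences were smaller and more precise, at -0.39 (SE 0.08, adjusted p = 0.00449) and -0.56 (SE 0.09, adjusted p = 0.000412). Among the tRNA positions, 4 neighbours between mt-Nd2 and mt-Co1 had the smallest adjusted p values of all members: mt-Ta (-0.66, adjusted p = 0.000328), mt-Tn (-0.62, 0.000665), mt-Tc (-0.58, 0.00126) and mt-Ty (-0.59, 0.00162). mt-Ta stood at 122 to 176 CPM in PA-F and 225 to 262 CPM in PA-M, and PA-F4 and PA-F5, at 172 and 126 CPM, were within the range of PA-F1 to PA-F3. Of all 36 members, 24 did not overlap between PA-F and PA-M, against 5.22% of all genes. In the plot of log2 changes, the third panel stands apart from the other two.

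**Figure D5:**
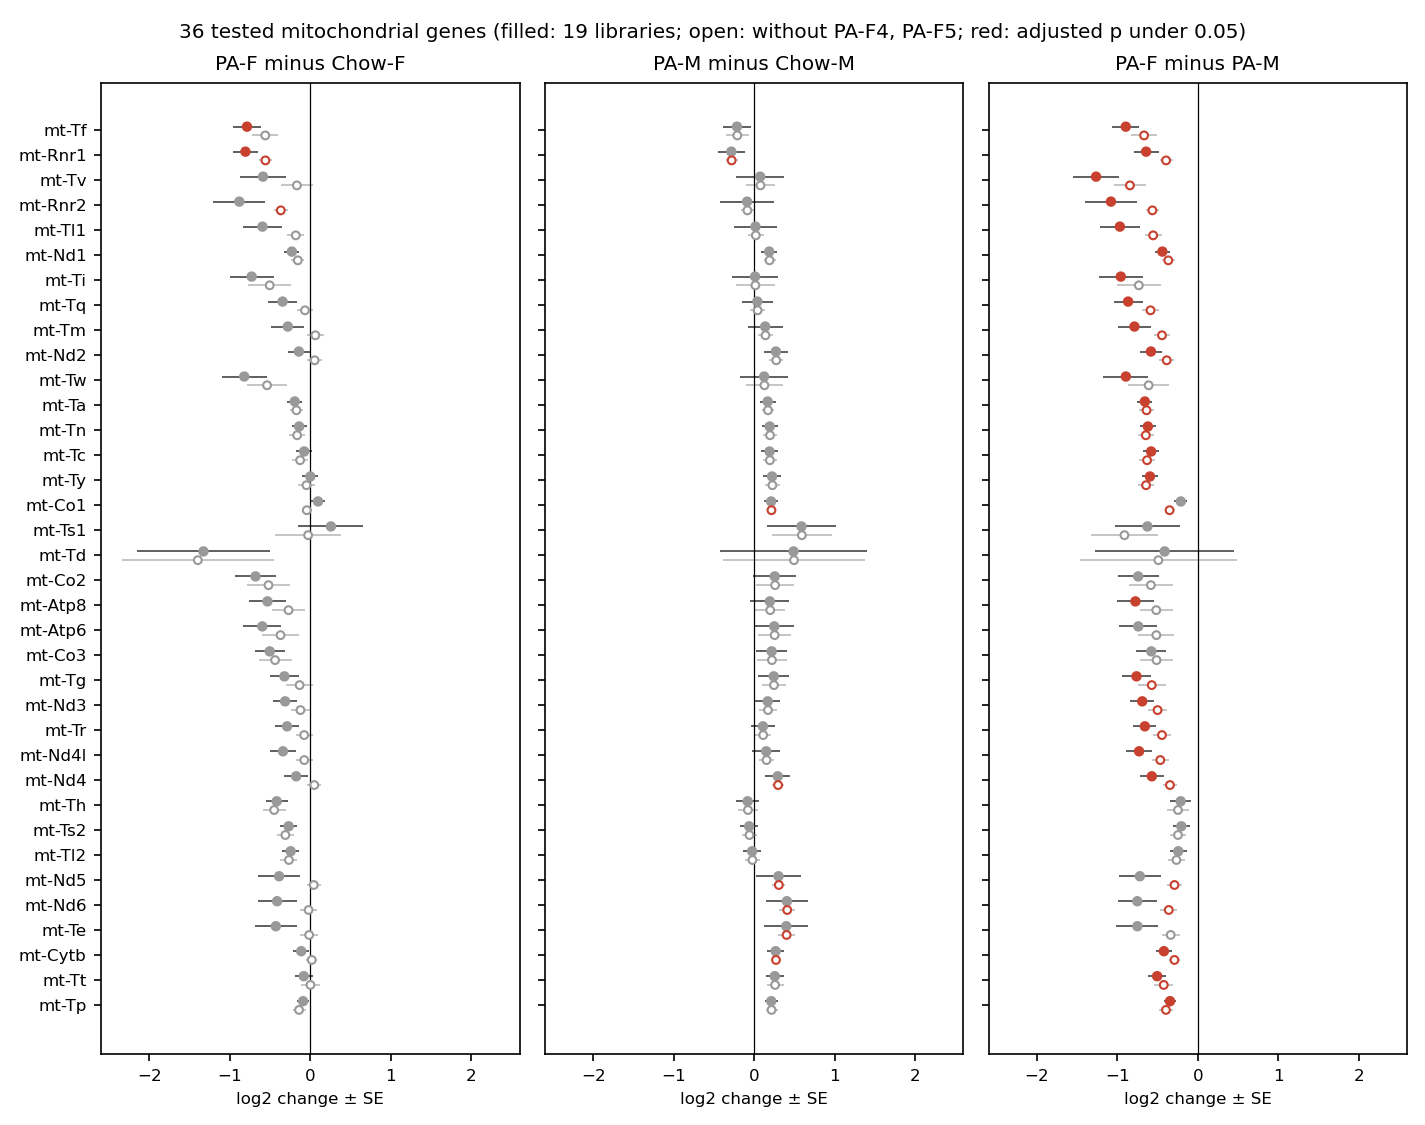
Log2 change ± SE of the 36 tested members in genome order for PA-F minus Chow-F, PA-M minus Chow-M and PA-F minus PA-M; filled points use 19 libraries, open points leave out PA-F4 and PA-F5, and red marks an adjusted p under 0.05. In the third panel all points are below 0 and 24 filled points are red, against 2 in the first panel and 0 in the second.

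The count of 24 changed with the fit. With only the 2 PA groups in the model, 8 members were called, all lower, and with the GC slope as covariate 11. Leaving out any 1 library kept the number at 19 to 30. Scaling the libraries without the mitochondrial genes left it at 24. Shares over all genes were not taken for these fits, so their counts cannot be set against such a share.

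Among the nuclear partners of the respiratory chain few passed the test with all libraries. Of 75 nuclear-encoded subunits tested, 1 was lower in PA-F than in PA-M (3.95% of all genes were), Ndufs1 of complex I (-0.17, SE 0.04, adjusted p = 0.0196), 0 were higher, and the list's median was 0.07. When PA-F4 and PA-F5 were left out, 9 were lower (5.49% of all genes) and the median was -0.10. For diet, 0 of 75 passed in females and 0 in males. Cox7b (-0.17, adjusted p = 0.121) and Uqcrb (-0.17, adjusted p = 0.162) had the smallest p in females, and Ndufs7 and Atp5g1 in males (adjusted p = 0.466 and 0.567). Without the 2 libraries 22 of 75 were lower in females (2.50% of all genes), with a median of -0.19, and 2 in males (1.23% of all genes).

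Of 11 genes for mitochondrial transcription, 4 were lower in PA-F than in PA-M, against 3.95% of all genes. They were Mterf2 (-0.53, SE 0.10, adjusted p = 0.00256), Mterf3 (-0.44, adjusted p = 0.0358), Mterf1a (-0.80, adjusted p = 0.0274) and Tfb2m, a factor needed for initiation, at -0.38 (SE 0.11, adjusted p = 0.0286). Mterf1a was low, with means of 0.613 CPM in PA-F and 1.07 CPM in PA-M. Polrmt and Tfam did not pass with all libraries. With PA-F4 and PA-F5 left out, 4 of 11 were lower, against 5.49% of all genes, but not the same 4. Mterf2 (adjusted p = 0.00285) and Mterf3 (0.0420) passed again, while Mterf1a (0.117) and Tfb2m (0.0594) no longer did. On the diet in females 1 passed, Tfb1m (-0.28, adjusted p = 0.0352, and 0.0148 without the 2 libraries), which modifies the small subunit rRNA, against 0.865% of all genes lower; 2 of 11 passed without the 2 libraries (2.50% of all genes). In males 0 passed.

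Of 8 genes for stability, polyadenylation and decay, 3 were lower in PA-F than in PA-M, against 3.95% of all genes. Lrpprc, which binds and stabilises mitochondrial messengers, stood at 246 to 367 CPM in PA-F and 413 to 438 CPM in PA-M, with no overlap (-0.37, SE 0.08, adjusted p = 0.00539, and 0.000514 without PA-F4 and PA-F5). The nuclease Pnpt1 passed both ways (-0.67, adjusted p = 0.0472, and 0.00543 without the 2 libraries). The polyA polymerase Mtpap passed with all libraries (-0.32, adjusted p = 0.0178) and not without the 2 (0.0523), which left 2 of 8, against 5.49% of all genes.

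Of 18 tested genes listed here under RNA processing, 2 were lower in PA-F than in PA-M, against 3.95% of all genes. They were Ptcd3 (-0.28, adjusted p = 0.0134) and Fastkd1 (-0.27, adjusted p = 0.0455). Ptcd3 also passed without PA-F4 and PA-F5 (0.0152) and Fastkd1 did not (0.0908), and 2 of 18 were lower (5.49% of all genes). For diet 0 passed in either sex with all libraries, and 2 were lower in females without the 2 libraries, against 2.50% of all genes. Of 14 genes for DNA replication and upkeep, 1 passed in females for diet and 1 for sex on PA (0.865% and 3.95% of all genes were lower). It was Ssbp1, the single-strand binding protein, lower in PA-F than in Chow-F (-0.33, adjusted p = 0.026) and PA-M (-0.27, adjusted p = 0.0294). Neither call held without PA-F4 and PA-F5 (adjusted p = 0.0506 and 0.114), and 0 of 14 passed. Of 11 biogenesis regulators 1, Esrrb, was higher in PA-F than in PA-M (0.31, adjusted p = 0.0471), against 6.40% of all genes, and 0 passed for diet. Without the 2 libraries the adjusted p of Esrrb was 0.157, and 3 of 11 were lower and 1 higher (5.49% and 4.88% of all genes).

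Among markers of other cells, mainly those of fibroblasts differed between the sexes on PA. Of 10 fibroblast markers 7 were higher in PA-F than in PA-M, against 6.40% of all genes, and 6 without PA-F4 and PA-F5, against 4.88%. Their summed level was 3068 to 3807 CPM in PA-F and 2688 to 2909 CPM in PA-M, with no overlap. On chow 2 of the 10 fibroblast markers were already higher in females, Lum (0.67) and Tcf21 (0.45), where 3.23% of all genes were called in either direction. Of 8 smooth muscle and pericyte markers 3 were higher in PA-F than in PA-M (2 without the 2 libraries). Of 10 macrophage and leukocyte markers 1 (1) was higher, of 10 endothelial markers 0 (1) and of 8 blood markers 0 (0). The share of all genes was again 6.40% (4.88%). Of 14 cardiomyocyte markers 0 passed, with sums of 118563 to 141451 CPM in PA-F and 122504 to 129621 CPM in PA-M. Without the 2 libraries 1 was lower, against 5.49% of all genes.

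Marker counts for diet in females changed when PA-F4 and PA-F5 were left out. With all libraries, 3 of 10 fibroblast, 3 of 10 endothelial and 1 of 8 blood markers were higher (1.67% of all genes), and 1 of 14 cardiomyocyte markers, Tnnt2, was lower (0.865%). Without these 2, 3 of 10 fibroblast, 3 of 10 endothelial and 7 of 8 blood markers were higher (2.46% of all genes; median of the blood list 0.73), and 7 of 14 cardiomyocyte markers were lower (2.50%; median -0.20). In males 1 of 10 endothelial markers was higher (0.399% of all genes). Without the 2 libraries 1 of 10 endothelial and 1 of 8 smooth muscle and pericyte markers were higher (1.37%), and 3 of 14 cardiomyocyte markers were lower (1.23%). The part of these cells in the mitochondrial results was not tested.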

How the data were processed

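The deposited values are whole counts, 1 file per sample, and the authors' mapping and counting rules are not given in the sources used here beyond the names Salmon 1.5.1, DESeq2 1.32.0 and GRCm39 in the submitters' processing notes. In 19 files the counts are for 425461 pieces of exons, which were summed per gene. Of 33309 pieces naming several genes, 27968 could be given to 1 gene and 5341, with 1.17% to 1.29% of counts, were not used. On MT, 6 of 43 pieces are shared (0.157% to 0.588% of mitochondrial counts). Coordinates and sequences are those of GENCODE vM21 (GRCm38). In it, all 35 mitochondrial genes in the per-gene counts of Chow-M4, and 44772 of 48970 genes (91.4%), have the coordinates given there. The exon pieces of the other 19 libraries were not compared in this way.

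Counts were fitted in 1 model of the 4 groups (edgeR 4.0.16 in R 4.3.3, TMM, quasi-likelihood F-test), with genes filtered by filterByExpr (18035 tested; mt-Tk was not) and called at a Benjamini-Hochberg adjusted p under 0.05. DESeq2 1.42.0, other scalings, filters and samples, a GC covariate and a replicate block were alternatives. The labels state no pairing by number, and same-numbered samples had correlations of -0.215 to 0.258, which do not settle it. The scripts were tested on simulated data. All members, the 9 most abundant protein and rRNA genes and, from nuclear lists, up to 4 called genes or the 2 smallest p are named. Members and lists were chosen with earlier results of these data known.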

Additional observations from a re-analysis of the deposited data

Results flagged for a closer look

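In 68 groups of libraries tested for a single library far from the rest (the 15 protein and rRNA genes, and the mitochondrial and rRNA shares, in 4 groups), 6 were found, where chance alone marks about 1 in 20. In 5 of them the library is Chow-F4. It held 8045 CPM of mt-Nd2 (6813 to 7101 in the other Chow-F libraries), 51.0 of mt-Co2 (17.0 to 21.8), 16.1 of mt-Atp8 (6.65 to 7.62), 43.5 of mt-Atp6 (16.8 to 20.4) and 47.4 of mt-Co3 (19.1 to 25.8). Relative to the mean of the other 4, the same library was 2.80-fold at mt-Ti and 2.71-fold at mt-Tw, with 1.16-fold at mt-Nd2 between them. The largest excess was 23.3-fold at mt-Td, on few counts, 160 against 32 in the other 4 together. At mt-Tk it was 5.47-fold, on 6 counts against 5. Chow-F4 was 1.03-fold at mt-Co1, 2.77-fold at mt-Co2, 2.20-fold at mt-Atp8, 2.30-fold at mt-Atp6, 2.13-fold at mt-Co3 and 1.04-fold at mt-Nd3. The chromosome 1 pseudogenes were higher in it too, Gm28437 9.27-fold at 1700 counts and Gm28661 5.33-fold. The sixth is mt-Rnr2 in Chow-M5, at 4787 CPM against 5012 to 5053 CPM in the other Chow-M libraries, which is still above every Chow-F library.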

How the results depend on the processing

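Of 75 gene results none reversed. With only the groups compared in the model, the diet comparison called 0 members in females and 10 in males, and the sex comparison 9 on chow and 8 on PA. Without PA-F4 and PA-F5 they numbered 7 for diet in males and 9 for sex on chow, and the median log2 change of the 13 protein genes was -0.0764 for diet in females and -0.3863 for sex on PA. With the GC slope per library as covariate, 6, 7 and 11 were called for diet in males, sex on chow and sex on PA, and the medians were -0.0153 for diet in females, -0.2376 for the interaction and -0.3041 for sex on PA. DESeq2 called 1 for sex on chow. Leaving out each of 19 libraries in turn gave 1 to 5 members for diet in females (5 without PA-F1, 1 without PA-F4), 0 for diet in males and the interaction, 0 to 2 for sex on chow (2 without PA-F3) and 19 to 30 for sex on PA. The replicate block gave 26 members for sex on PA, 2 for diet in females and 0 for the other contrasts, and no pairing by number is stated. The cause of these differences was not tested. Shares over all genes were taken only for the main model, with all libraries and without PA-F4 and PA-F5. How reads that match the chromosome 1 copy were counted is not given, so the levels of mt-Co2, mt-Atp6, mt-Co3, mt-Nd3 and mt-Nd4l are uncertain.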
